A study of Mus musculus with 7 samples.

Results

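The genes described here encode the proteins of the mitochondrial ribosome and were taken by their symbols, Mrpl or Mrps followed by a digit. Probes were matched to symbols through their accession, kept where they were well above background on at least 3 arrays, and reduced to the brightest probe of each gene. This gave 78 members among the 23678 genes measured (14718 with a symbol and the rest under the array's own identifier), 49 with an Mrpl and 29 with an Mrps symbol, from 101 probes. RefSeq holds 84 symbols of this form. The 78 of protein-coding genes are the members, and the other 6 are pseudogenes without a probe. All 78 were well above background on all 7 arrays, so no member was lost to the filter. Which genes entered rested on symbols and signal strength, with no use of differences between the groups. The family itself was chosen with earlier results of these data known.

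RNA came from the heart apex of male C57Bl/6 mice, with 1 single-colour Agilent array per mouse. The 3 double knockout mice (DKO) were homozygous for floxed Akt1 (exons 6 and 7) and floxed Akt2 (exons 5 and 6) and heterozygous for the MHC-mercremer transgene. That transgene makes a tamoxifen-dependent recombinase from the alpha myosin heavy chain promoter, so deletion is aimed at cardiomyocytes, and the other cells of the apex keep both genes. The 4 control mice carried the MHC-mercremer transgene alone. Both groups were given hydroxytamoxifen at 3 months of age, 500 µg daily on 5 days, and hearts were taken 10 days after induction without any further treatment of the heart. In tissue pieces of this kind, fewer cells of a type and less RNA per cell cannot be told apart.

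The mitochondrial ribosome translates the few proteins still encoded in mitochondrial DNA, all of them core parts of the respiratory chain and ATP synthase. Its RNAs come from mitochondrial DNA, whereas every one of its proteins is encoded in the nucleus, made in the cytosol and imported. Some of these proteins descend from bacterial ribosomal proteins and others were added in the mitochondrial lineage. Cardiomyocytes are packed with mitochondria, and inherited defects of several of these proteins cause cardiomyopathy in humans. Akt1 and Akt2 are kinases of the insulin and growth factor pathway.

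The deletion showed on the Akt2 probes. The brightest Akt2 probe read 11.64, 11.67 and 11.61 log2 units in DKO hearts, against 13.78, 13.70, 13.61 and 13.65 in control hearts, a difference of -2.05 ± 0.07 (SE; limma adjusted p = 0.000165). Other kept Akt2 probes differed by -2.29 ± 0.10 and -0.68 ± 0.12. The brightest Akt1 probe read 0.17 ± 0.07 log2 units higher in DKO hearts and did not pass the test (limma adjusted p = 0.190). A second, dimmer Akt1 probe read 0.47 ± 0.16 higher and did not pass in a fit over all kept probes (limma adjusted p = 0.139). Whether the Akt1 probes lie in the deleted exons was not tested. All 10 cardiomyocyte markers were measured on every array, and their level, the median over markers of the log2 signal minus the control mean, ran from -0.15 to 0.01 in DKO and from -0.03 to 0.04 in control hearts. All 8 endothelial markers averaged higher in DKO hearts, with a level of 0.14 to 0.20 there and of -0.05 to 0.08 in controls. Of 8 fibroblast markers 7 averaged higher as well, but their levels overlapped, at 0.01 to 0.26 in DKO and -0.15 to 0.08 in control hearts. Among 8 mural markers 5 averaged higher and 1, Myh11, passed the test, though in 0 of 7 fits that left out 1 array; the mural level was 0.18 to 0.22 in DKO and -0.02 to 0.07 in control hearts. Of 8 adipocyte markers 3 were measured, while Ucp1 and Plin1 were well above background on 0 arrays. Of 6 atrial markers 4 were measured and 3 averaged lower, with a level of -0.67 to -0.59 in DKO and of -0.16 to 0.12 in control hearts, and Bmp10 was well above background on 0 arrays. Myl7, among the 3 lower ones, was dim, at 4.19 log2 units in DKO and 5.28 in control hearts. It was well above background on 1 DKO and 3 control arrays. The atrial potassium channel gene Kcnj3 was called lower (-0.89, limma adjusted p = 0.0122), a call lost without control replicate 4 (0.0502), while Nppa averaged higher by 0.82 without passing. The levels of the macrophage, skeletal muscle, red blood cell, lymphocyte and adipocyte lists overlapped between groups. The part of these cell types in the results on the mitochondrial ribosome was not tested.

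Most mitochondrial ribosomal protein transcripts averaged slightly lower in DKO hearts, and 2 passed the test across all genes. Mrps12, a protein of the decoding centre of the small subunit, was 2.00-fold lower in DKO hearts, and Mrpl19, a protein of the large subunit, was 1.49-fold lower. The other 76 members did not pass. In all, 60 of 78 members averaged lower in DKO hearts and 18 higher, with a median log2 difference of -0.11. Over all 23678 genes 53.1% averaged lower and the median was -0.02, and over the 11375 genes within the members' range of signal 44.1% averaged lower and the median was 0.03.

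Across all genes limma called 4.7% at an adjusted p below 0.05, 2.29% as lower and 2.41% as higher in DKO hearts, so the 2 of 78 members called lower, a share of 2.56%, lay near that background. At an unadjusted p below 0.05 limma had 21 members lower and 3 higher, where 13.9% of all genes were lower and 11.6% higher. For 26 members all DKO values lay under all control values, which is 33.3% of the members against 12.5% of all genes, and for 4 members all lay above, where the background was 13.2%. These counts are descriptions of members whose arrays are shared, and no test was made over the list. The log2 differences of single members had standard errors of 0.06 to 0.39 with a median of 0.08, and 55 of 78 differences lay within 0.2 of 0. For 65 members the 95% interval of the difference lay within 0.5 log2 units of 0.

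The member level of an array, the median over the 78 genes of the log2 signal minus the control mean of that gene, was -0.08, -0.14 and -0.13 in DKO hearts, against -0.01, 0.05, -0.05 and 0.02 in control hearts. Every DKO array lay below every control array, and the gap between the nearest arrays was smaller than the range among the controls. The arrays lay in both rows of 1 slide, and the median difference of the members was -0.10 within row 1 (DKO replicate 3 and control replicates 1, 3 and 4) and -0.16 within row 2 (DKO replicates 1 and 2 and control replicate 2).

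**Figure D1:**
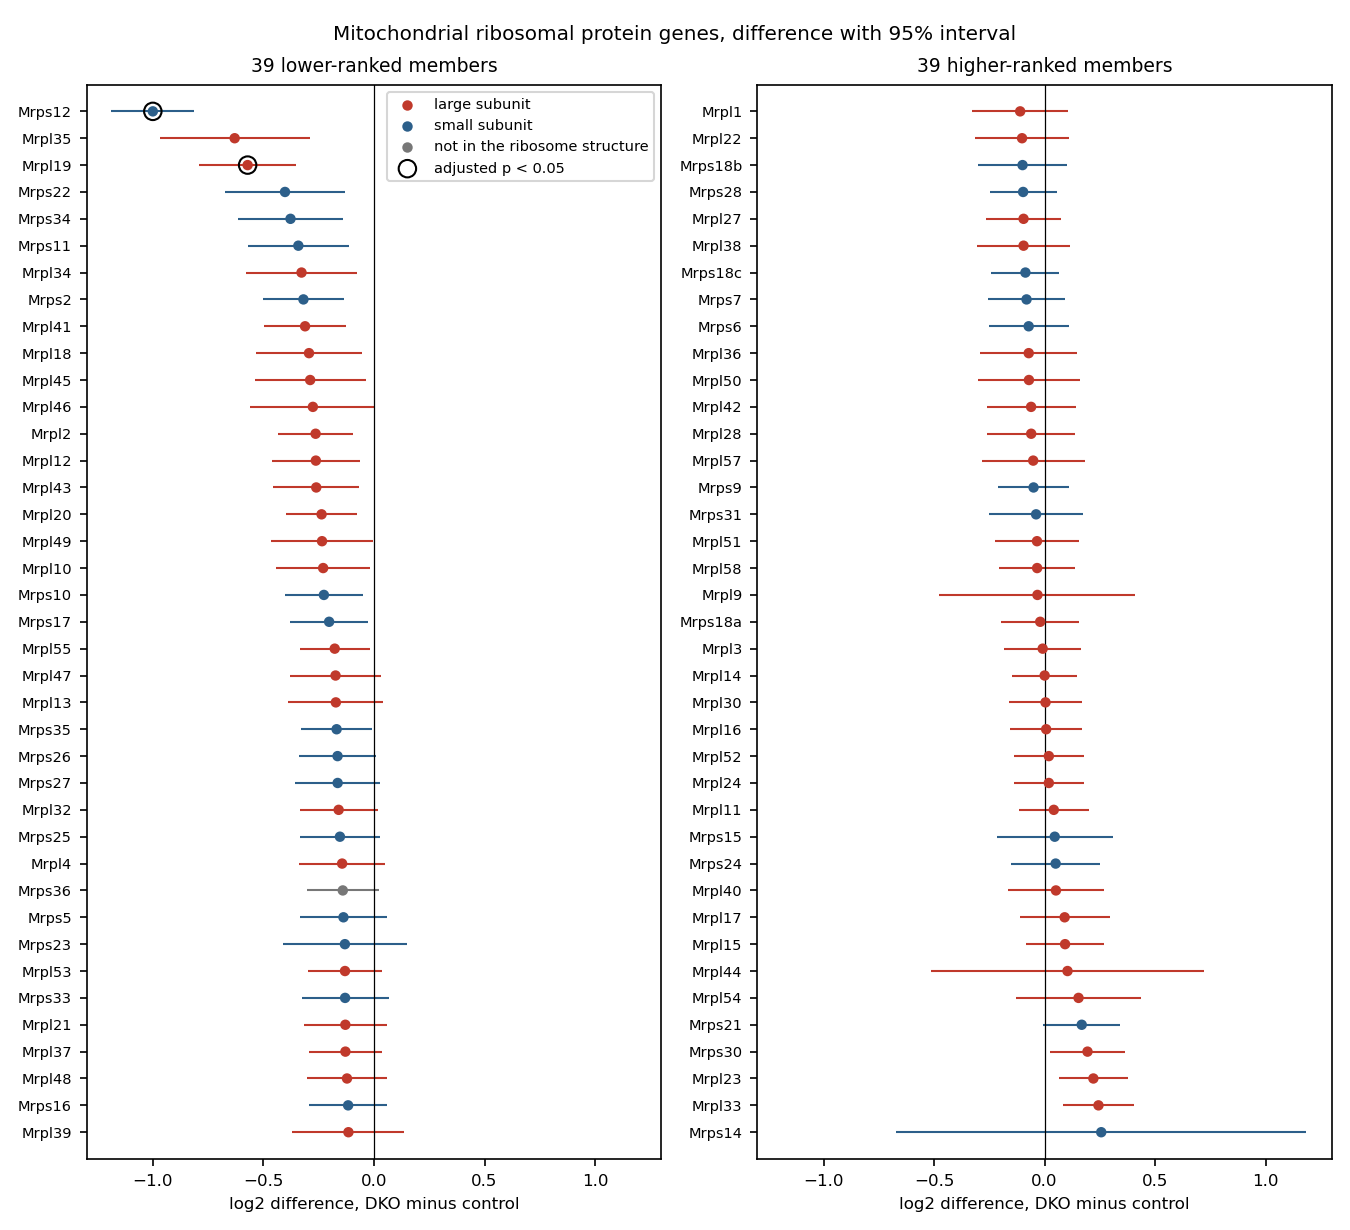
Log2 difference (DKO minus control) of all 78 mitochondrial ribosomal protein genes with its 95% interval from limma, ordered from the most negative at the upper left to the most positive at the lower right, with colours for the ribosomal subunit and rings for adjusted p below 0.05. Mrps12 and Mrpl19 carry the rings, and most other intervals hold 0 or end close to it.

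Mrps12 is the counterpart of bacterial S12, a protein at the site where codons are read. Its signal was 12.60, 12.47 and 12.68 log2 units in DKO hearts, against 13.54, 13.63, 13.54 and 13.63 in control hearts. The groups lay far apart, with the highest DKO heart well under the lowest control. These values come from 1 probe, the only one kept for the gene, so no second probe could be compared. The difference was -1.0 ± 0.08 log2 units (SE; 95% interval -1.19 to -0.81), a level 2.00-fold lower (limma adjusted p = 0.00454), and it ranked 21 by p among all genes. The difference was -0.89 within slide row 1 and -1.10 within slide row 2, and Mrps12 passed in each of 7 fits that left out 1 array, with adjusted p between 0.0143 and 0.0287. With the replicate number as a block its call was lost (limma adjusted p = 0.123), at a difference of -0.99.

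Mrps12 was also the only member within 50 named tested genes of either deleted locus, lying on chromosome 7, 32 such genes from Akt2. Of the 100 named tested genes in the window around Akt2, leaving out Akt2 itself, 5 were called higher and 5 lower, the latter including Mrps12. That is 10%, against 5.3% of the 14718 genes that have a symbol, and the median difference was 0.08. The 79 genes around Akt1 had 2 higher and 2 lower calls, or 5.06%. On the Mrps12 side of Akt2 the calls close to it included Fbxo27, an F-box protein gene (1.0 ± 0.11, limma adjusted p = 0.00886), Ech1, an enzyme of fatty acid oxidation (-0.82 ± 0.09, limma adjusted p = 0.00886), and Lgals4, a galectin (-2.52 ± 0.25, limma adjusted p = 0.00781). Calls of both signs thus stood within 10 tested genes of Mrps12, and these 3 passed in each of the 7 fits that left out 1 array. Whether the position beside a targeted gene bears on the Mrps12 value was not tested.

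**Figure D2:**
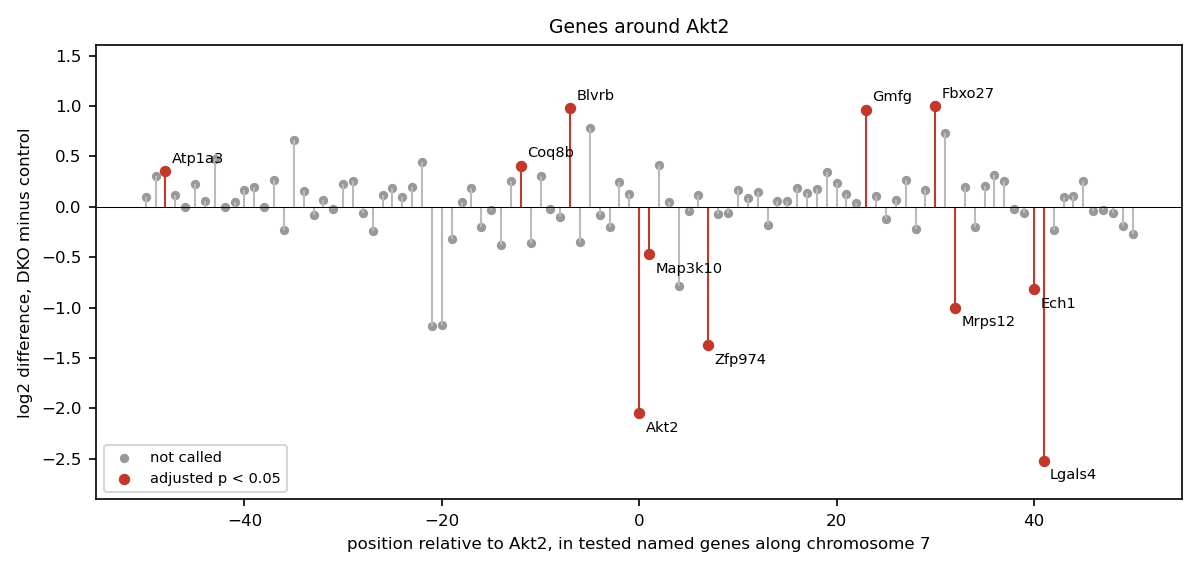
Log2 difference (DKO minus control) of Akt2 and the 100 named tested genes around it, by their order on chromosome 7, with genes at adjusted p below 0.05 in red and named. Mrps12 stands 32 genes from Akt2 at -1.0, between Fbxo27 at 1.0 and Ech1 at -0.82.

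Sars2, the mitochondrial seryl-tRNA synthetase, starts 147 bases from Mrps12 on the opposite strand, so the windows of 250 bases before to 50 after each start share 246 bases. Both windows are shown because the neighbours differed in sign. The Mrps12 window lies at chr7:28741772-28742071 on the minus strand and the Sars2 window at chr7:28741718-28742017 on the plus strand of GRCm38.p6 (sequences from RefSeq). Capitals mark the ETS motif, CCGGAAG or its reverse complement CTTCCGG, which is 1 site read from both sides.
Mrps12: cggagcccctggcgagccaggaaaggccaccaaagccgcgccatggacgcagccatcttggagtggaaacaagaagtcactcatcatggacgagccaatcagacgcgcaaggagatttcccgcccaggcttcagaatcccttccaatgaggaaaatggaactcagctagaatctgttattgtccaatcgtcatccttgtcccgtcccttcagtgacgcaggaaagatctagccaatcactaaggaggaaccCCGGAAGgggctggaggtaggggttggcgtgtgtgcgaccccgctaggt
Sars2: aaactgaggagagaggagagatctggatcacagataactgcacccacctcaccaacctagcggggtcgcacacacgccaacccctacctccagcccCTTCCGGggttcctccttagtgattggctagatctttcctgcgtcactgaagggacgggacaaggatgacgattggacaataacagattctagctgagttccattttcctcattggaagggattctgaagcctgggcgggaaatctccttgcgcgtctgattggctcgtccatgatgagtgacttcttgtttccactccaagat
Sars2 read 9.46, 9.33 and 9.26 log2 units in DKO hearts, against 9.21, 9.21, 9.06 and 9.14 in control hearts. The groups did not overlap, with DKO above control. The difference of 0.19 ± 0.08 did not pass the test (limma adjusted p = 0.191).

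Mrpl19, a large subunit protein with a bacterial counterpart, read 9.91, 9.72 and 9.66 log2 units in DKO hearts, against 10.41, 10.41, 10.22 and 10.30 in control hearts. The groups did not overlap. The difference of -0.57 ± 0.09 (SE; 95% interval -0.79 to -0.35; limma adjusted p = 0.0246) corresponds to a level 1.49-fold lower. Mrpl19 too had only 1 kept probe. The call was lost without control replicate 4 (adjusted p = 0.0748) and without DKO replicate 1, 2 or 3 (0.0544, 0.0838 and 0.0755). It was also lost without a filter on dim probes (0.114) and with the slide row (0.0505) or the replicate number (0.140) as a block.

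Mrpl35, another large subunit protein with a bacterial counterpart, had the second most negative value and the dimmest probe of the family. It read 8.29, 8.33 and 7.88 log2 units in DKO hearts, against 8.79, 8.99, 8.58 and 8.82 in control hearts. DKO replicate 3 was the lowest and the groups did not overlap. Only 1 probe was kept for this gene as well. The difference of -0.63 ± 0.14 missed the threshold (limma adjusted p = 0.0571). It passed in 5 of 14 alternatives fitted to all 7 arrays, among them the slide row as a block (0.0370). With 1 array left out it passed in 0 of 7 fits (adjusted p of 0.0768 to 0.138).

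The next 5 members by size of the difference did not pass the test. Mrps22, which has no bacterial counterpart and is mutated in human cardiomyopathy, differed by -0.40 ± 0.12 (limma adjusted p = 0.0936), and a second probe gave -0.36. Mrps34, likewise without a bacterial counterpart, differed by -0.38 ± 0.10 (limma adjusted p = 0.0810). Mrps11, on the platform of the small subunit, read 9.94, 9.96 and 9.92 in DKO hearts, against 10.21, 10.35, 10.11 and 10.46 in control hearts, with tight DKO values all under the lowest control (-0.34 ± 0.10, limma adjusted p = 0.0926). Mrps2, another small subunit protein of bacterial descent, differed by -0.32 ± 0.08 (limma adjusted p = 0.0669), and its second probe by -0.27. Mrpl34, a small protein of the large subunit, differed by -0.33 ± 0.11 with overlapping groups (limma adjusted p = 0.119).

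Values follow for 4 members picked for their roles after the values were known. Mrpl2, beside the peptidyl transferase centre, averaged 14.35 ± 0.07 in DKO hearts and 14.61 ± 0.05 in control hearts (SD, n = 3 and 4), a difference of -0.26 ± 0.07 (limma adjusted p = 0.0869). Mrpl12 and Mrpl10 form the stalk that recruits translation factors, and they differed by -0.26 ± 0.08 (limma adjusted p = 0.116) and -0.23 ± 0.09 (limma adjusted p = 0.169). Both did so without overlap between groups on the brightest probe, while a second Mrpl10 probe gave -0.16 with overlapping groups. Mrpl58, a peptidyl-tRNA hydrolase that rescues stalled ribosomes, differed by -0.03 ± 0.07.

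At the other end 8 members averaged highest in DKO hearts, and none passed the test. Mrpl33, a large subunit protein of bacterial descent, read 15.75, 15.66 and 15.66 log2 units in DKO hearts, against 15.39, 15.50, 15.42 and 15.46 in control hearts. All DKO hearts lay above all controls (0.24 ± 0.07, limma adjusted p = 0.0907). Mrpl23, beside the tunnel through which the new protein leaves, differed by 0.22 ± 0.07 (limma adjusted p = 0.105). Mrps30, which sits in the large subunit despite its symbol, differed by 0.19 ± 0.07 (limma adjusted p = 0.153). Mrps21, a small subunit protein, differed by 0.17 ± 0.07 (limma adjusted p = 0.210). These 4 were the members whose DKO values all lay above the controls on the brightest probe. A second probe of Mrps21 gave 0.08, with overlapping groups.

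The remaining positive values were less steady. Mrps14, a small subunit protein, read 11.88, 11.71 and 11.90 in DKO hearts, against 10.42, 12.12, 11.89 and 11.87 in control hearts. Its positive mean difference of 0.26 ± 0.39 came with 1 low array, control replicate 1, and without that array the difference was -0.13. Mrpl44, an RNase III-like protein of the large subunit, read 11.51, 11.48 and 11.67 in DKO hearts, against 10.70, 11.79, 11.64 and 11.68 in control hearts. Control replicate 1 was again low, and the difference of 0.10 ± 0.26 became -0.15 without it. Mrpl54 differed by 0.15 ± 0.12 and Mrpl15 by 0.09 ± 0.07, both with overlapping groups. Second probes had the opposite sign for Mrpl44 (-0.15), Mrpl15 (-0.22) and Mrps23 (0.005, where the used probe gave -0.13), and the sign was shared by all probes in the other 18 members with several probes.

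**Figure D3:**
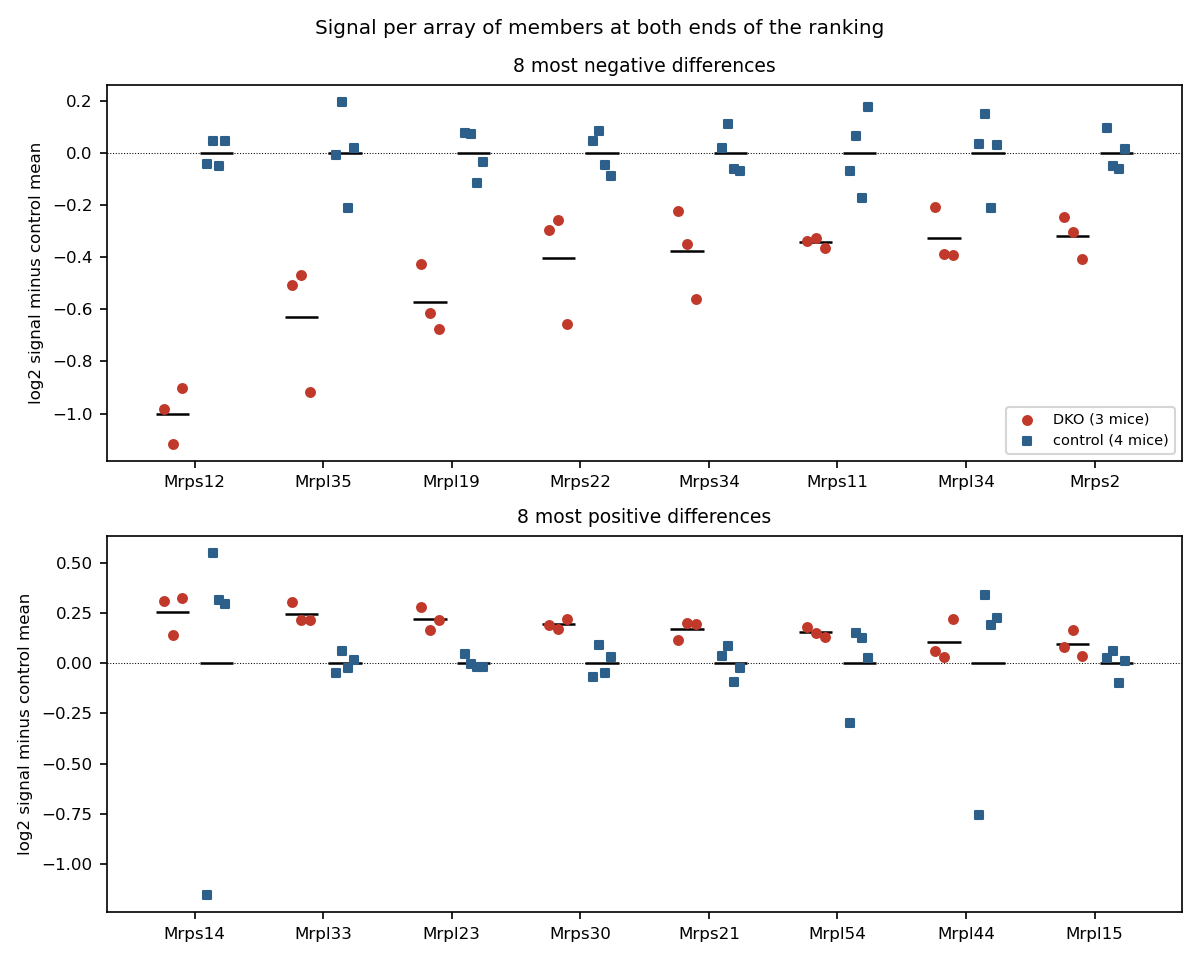
Log2 signal of each array minus the control mean of the gene for the 8 members with the most negative (upper panel) and the 8 with the most positive differences (lower panel), with 3 DKO hearts left of 4 control hearts for each gene and a bar at each group mean. In the upper panel the groups overlap for Mrpl34 alone, and in the lower panel 1 control array lies far below the others for Mrps14 and Mrpl44.

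Values in both subunits leaned the same way. Of 51 large subunit members 37 averaged lower in DKO hearts, with a median of -0.10 and 1 call, and of 26 small subunit members 22 did, with a median of -0.13 and 1 call. The large subunit level was -0.08, -0.12 and -0.07 in DKO hearts, against -0.003, 0.05, -0.03 and 0.02 in control hearts, and the small subunit level was -0.09, -0.17 and -0.15 in DKO hearts, against -0.02, 0.06, -0.05 and 0.01 in control hearts. For both subunits each DKO array lay under each control array, and a difference between the subunits was not tested. Mrps36, named for the ribosome but a subunit of the oxoglutarate dehydrogenase complex, was placed in neither and differed by -0.14 ± 0.07.

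By descent, the counts were close to each other. Of the 46 members with a bacterial counterpart 33 averaged lower (median -0.10), and both called members are among them. Of the 31 without one 26 did (median -0.12), including all 10 of the small subunit. By probe signal, 21 of the 26 dimmest, 21 of the 26 middle and 18 of the 26 brightest members averaged lower in DKO hearts. The brightest probes were those of Mrpl51, Mrpl33 and Mrpl42 and the dimmest those of Mrpl35, Mrpl50 and Mrpl19, which orders probes and not transcript levels. Among these Mrpl51 (-0.03), Mrpl42 (-0.06) and Mrpl50 (-0.07) had differences within their standard errors of 0.08, 0.09 and 0.10. The sign of Mrpl51 turned to 0.002 without control replicate 2 and to 0.01 without DKO replicate 3, and that of Mrpl42 to 0.07 within slide row 2.

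Mitochondrial ribosomal protein genes are known to carry binding motifs of NRF1, ETS factors such as GABP, and YY1 near their starts. Promoter windows of 300 bases from RefSeq (GRCm38.p6) were at hand for 69 of 78 members, Mrps12 among them and Mrpl19 not. Searched on both strands, the NRF1 motif (GCGC and TGCGC with any 1 base between them) was in 13 of 69 member windows (18.8%). Among all 27025 genes with a window, 5.19% had it. The ETS motif CCGGAAG was in 26 member windows (37.7%) and 9.93% of all, and the YY1 motif AAGATGGCG in 8 (11.6%) and 1.64% of all. The E-box CACGTG, which MYC can bind, was in 5 (7.25%) and 8.09% of all. The median differences of members with and without a motif were -0.05 and -0.12 for NRF1, -0.11 and -0.11 for ETS, -0.10 and -0.11 for YY1, and -0.13 and -0.11 for the E-box. The 27025 genes were not limited to those measured here, so these shares are not matched for expression. A match describes the letters in the window and not binding.

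Windows of 3 more members are shown as examples of these motifs at both ends of the ranking, Mrpl35 at chr6:71823735-71824034 on the minus strand, Mrpl33 at chr5:31613701-31614000 on the plus strand and Mrps21 at chr3:95871465-95871764 on the minus strand of GRCm38.p6. Capitals mark the YY1 motif in Mrpl35, the ETS motif in Mrpl33, and the NRF1 motif followed by the ETS motif in Mrps21.
Mrpl35: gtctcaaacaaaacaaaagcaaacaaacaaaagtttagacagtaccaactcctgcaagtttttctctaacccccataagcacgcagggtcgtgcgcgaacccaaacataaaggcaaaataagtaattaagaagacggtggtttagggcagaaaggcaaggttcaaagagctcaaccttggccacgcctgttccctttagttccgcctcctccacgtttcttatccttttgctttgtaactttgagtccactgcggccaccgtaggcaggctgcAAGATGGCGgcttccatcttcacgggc
Mrpl33: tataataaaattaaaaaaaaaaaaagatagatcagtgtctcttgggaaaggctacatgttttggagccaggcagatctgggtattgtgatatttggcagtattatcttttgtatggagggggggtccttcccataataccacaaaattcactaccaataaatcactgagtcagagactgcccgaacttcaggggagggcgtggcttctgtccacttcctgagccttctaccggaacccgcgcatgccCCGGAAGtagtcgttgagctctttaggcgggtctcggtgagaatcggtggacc
Mrps21: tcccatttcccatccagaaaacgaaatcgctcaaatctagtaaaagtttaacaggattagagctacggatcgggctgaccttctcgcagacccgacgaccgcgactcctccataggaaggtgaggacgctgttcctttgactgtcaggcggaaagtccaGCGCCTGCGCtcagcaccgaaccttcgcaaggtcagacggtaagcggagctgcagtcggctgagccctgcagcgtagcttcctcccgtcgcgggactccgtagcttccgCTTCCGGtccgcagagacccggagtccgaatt
The ETS motif stands at the annotated start both in Mrpl33, which averaged higher in DKO hearts, and in Mrps12, which fell.

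Genes that serve the mitochondrial ribosome gave mixed counts. For comparison with each list, limma called 4.7% of all genes, and at an unadjusted p below 0.05 it had 13.9% lower and 11.6% higher. Of 13 measured translation factors 10 averaged lower in DKO hearts, with a median of -0.25, and limma called 0, with 7 lower and 0 higher at an unadjusted p below 0.05. Their level was -0.17, -0.27 and -0.23 in DKO hearts, against -0.01, 0.02, -0.10 and 0.03 in control hearts, without overlap. Gfm1, the elongation factor that moves the ribosome along, read 14.18, 14.11 and 14.19 in DKO hearts, against 14.40, 14.42, 14.38 and 14.42 in control hearts (-0.25 ± 0.06, limma adjusted p = 0.0762). Mtif2, the initiation factor, differed by -0.43 ± 0.13 (limma adjusted p = 0.111). Tufm, which delivers aminoacyl-tRNA, and its exchange factor Tsfm differed by -0.22 ± 0.07 (limma adjusted p = 0.114) and -0.25 ± 0.09 (limma adjusted p = 0.132).

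Of 20 mitochondrial aminoacyl-tRNA synthetase genes 15 averaged lower (median -0.09), and 1 was called. Lars2, which charges leucine tRNA, read 11.30, 11.37 and 11.50 in DKO hearts, against 11.70, 11.96, 11.87 and 11.99 in control hearts (-0.49 ± 0.10, limma adjusted p = 0.0417). The groups did not overlap. Its call was lost with the slide row as a block and in 6 of 7 fits that left out 1 array, all but the one without control replicate 1 (adjusted p up to 0.130). Of the next by p, Qrsl1 differed by -0.44 ± 0.12, Hars2 by -0.32 ± 0.09 and Rars2 by -0.20 ± 0.07, and none passed.

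Of the 5 ribosomal subunits with other symbols 3 averaged lower (median -0.03) and 0 were called by limma, with 2 lower and 0 higher at an unadjusted p below 0.05. Gadd45gip1 differed by -0.25 ± 0.07 and Ptcd3 by -0.28 ± 0.10, while Dap3, a small subunit protein that binds GTP, differed by 0.04 ± 0.07 and Aurkaip1 by 0.06 ± 0.07. Of 34 assembly and RNA factors 19 averaged lower (median -0.07), and limma called 0, with 4 lower and 2 higher at an unadjusted p below 0.05. Pnpt1, the mitochondrial polynucleotide phosphorylase, differed by -0.26 ± 0.07, Nsun4, a ribosomal RNA methyltransferase, by -0.23 ± 0.07 and the RNA helicase Ddx28 by 0.25 ± 0.07. Of 11 insertion and protease genes 6 averaged lower (median -0.04), and limma called 0, with 1 lower and 2 higher at an unadjusted p below 0.05. Oxa1l, which inserts newly made chains into the inner membrane, differed by -0.15 ± 0.07.

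Of 12 genes of mitochondrial transcription and the nucleoid 5 averaged lower, with a median of 0.07 and a call in each direction. Polg, the mitochondrial DNA polymerase, read 11.18, 10.92 and 11.10 in DKO hearts, against 10.64, 10.49, 10.41 and 10.73 in control hearts (0.50 ± 0.11, limma adjusted p = 0.0499). Mterf2, a mitochondrial transcription termination family member, read 10.81, 10.78 and 10.91 in DKO hearts, against 11.33, 11.35, 11.19 and 11.35 in control hearts (-0.47 ± 0.08, limma adjusted p = 0.0246). Neither overlapped between groups, and the Polg value lay just inside the threshold. The Polg call was lost whichever array was left out (adjusted p of 0.0734 to 0.144), and the Mterf2 call without control replicate 4 or any DKO replicate (up to 0.0890). The mitochondrial RNA polymerase Polrmt differed by -0.30 ± 0.08 (limma adjusted p = 0.0800) and the transcription factor Tfam by -0.23 ± 0.08 (limma adjusted p = 0.131).

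Of 14 transcriptional regulators 7 averaged lower (median 0.02), and 1 was called. Myc, a driver of ribosome and growth genes, read 6.99, 7.43 and 7.57 in DKO hearts, against 5.59, 6.18, 6.17 and 6.09 in control hearts, and rose by 1.33 ± 0.20 (limma adjusted p = 0.0192). That call was lost without control replicate 4 or DKO replicate 2 or 3 (adjusted p up to 0.0710). The coactivators of mitochondrial gene expression Ppargc1a and Ppargc1b differed by -0.21 ± 0.07 (limma adjusted p = 0.146) and -0.49 ± 0.18 (limma adjusted p = 0.152), each without overlap and below control. Neither passed the test.

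Cytosolic ribosomal proteins stood on the other side of 0. Of 79 measured 72 averaged higher in DKO hearts, with a median of 0.17. Limma called 0, with 30 higher and 0 lower at an unadjusted p below 0.05, and for 40 the DKO values all lay above the controls. Over all genes 11.6% were higher and 13.9% lower at that unadjusted p, and for 13.2% the DKO values all lay above. Their level was 0.17, 0.14 and 0.19 in DKO hearts, against -0.06, 0.01, 0.07 and -0.02 in control hearts. Rps27, of the small cytosolic subunit, had the smallest p (0.32 ± 0.08, limma adjusted p = 0.0646). Many of these genes have near-identical copies, so that a probe may read more than 1 gene.

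The nuclear subunits of the respiratory chain and ATP synthase, which assemble with the products of the mitochondrial ribosome, lay near 0. Of 83 measured 45 averaged lower in DKO hearts, with a median of -0.01. The genes were taken by the start of their symbols, and whether each encodes a structural subunit was not checked. Limma called 0, with 6 lower and 1 higher at an unadjusted p below 0.05, where 13.9% of all genes were lower and 11.6% higher. Their level was 0.05, -0.05 and -0.04 in DKO hearts, against -0.01, 0.04, -0.02 and -0.01 in control hearts, with 1 DKO array above and 2 below all controls. The smallest p belonged to Ndufa4l2, higher in DKO hearts (0.34 ± 0.08, limma adjusted p = 0.0632), followed by Cyc1, the cytochrome c1 subunit (-0.23 ± 0.07, limma adjusted p = 0.105). As processed here, median differences were -0.11 for mitochondrial ribosomal proteins, -0.01 for respiratory chain and ATP synthase subunits and 0.17 for cytosolic ribosomal proteins. The first moved to -0.15 with quantile normalization, under which the others are not given here. A difference between the 3 families was not tested.

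**Figure D4:**
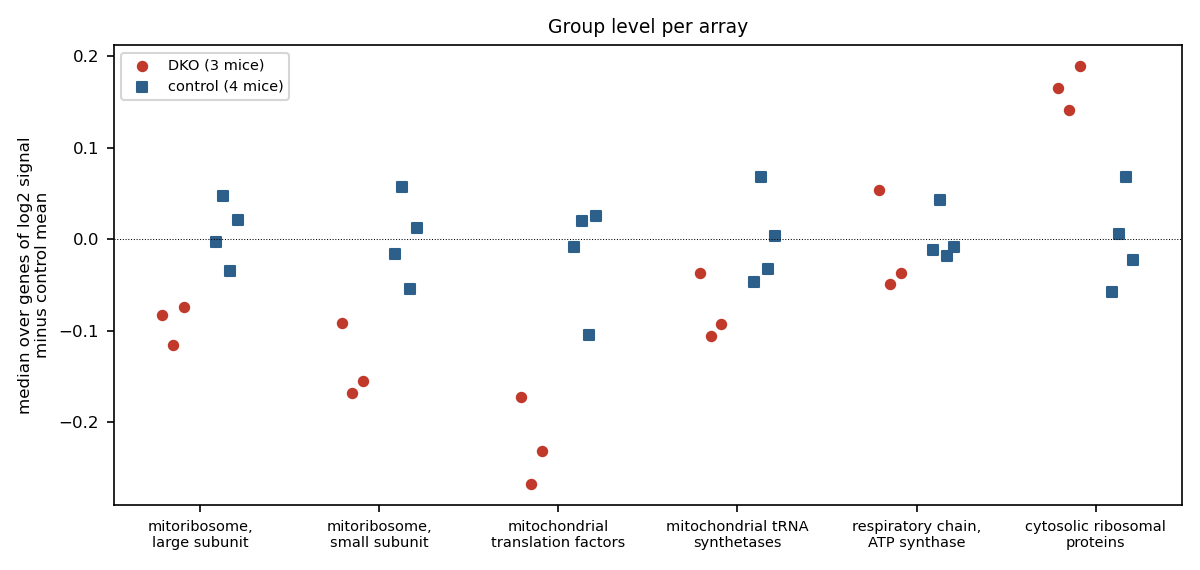
Level of each gene group on each array, as the median over its genes of the log2 signal minus the control mean, with 3 DKO hearts left of 4 control hearts. DKO hearts lie under all controls for both subunits of the mitochondrial ribosome and the translation factors, above all controls for cytosolic ribosomal proteins, and on both sides of the controls for the respiratory chain and ATP synthase.

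**Figure D5:**
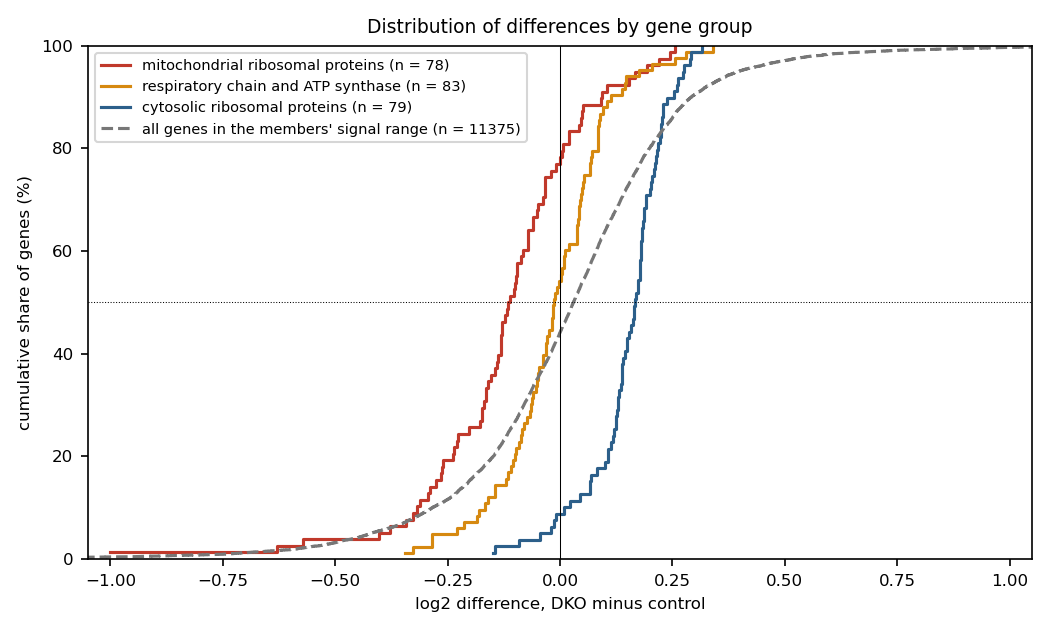
Cumulative share of genes (%) against the log2 difference (DKO minus control) for mitochondrial ribosomal proteins (78), respiratory chain and ATP synthase subunits (83), cytosolic ribosomal proteins (79) and the 11375 genes in the members' range of signal. The curves cross 0 at 76.9%, 54.2%, 8.86% and 44.1%.

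Outside the family, genes whose signal closely followed the member level over the 7 arrays were Barhl1 (Pearson r = 0.991), Kif5c (0.991), Opa1 (0.990) and Ints2 (0.987). Opa1, a GTPase of inner membrane fusion, differed by -0.23 ± 0.08 (limma adjusted p = 0.145). The 7 arrays hold both groups, so this measure includes the difference between them, and it is given as a description.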

How the data were processed

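Cy3-labelled complementary RNA from 100 ng of total RNA per heart was hybridised to Agilent arrays of 1 slide, per the labels' protocols and the file headers. The authors quantified the scans with Feature Extraction 12.0.3.1, and the deposited files give processed, background-subtracted intensity values, per the file headers. Probe positions are on mm9, per the file headers. As an alternative, the authors' own deposited log2 values were used. These matched quantile normalized values centred per probe (r 0.99999). Each array's median there is 0, and the tool that made them is not stated in them or their headers.

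Here, control spots and outlier spots were left out of the processed intensities. The array's 75th percentile was subtracted from log2 values and the mean percentile (9.14) added back. Between 50.9% and 55.7% of probes per array were well above background, and precision is limited by how many arrays there are. RefSeq (GRCm38.p6) symbols were found for 32989 of 56605 probes through their accessions. A two-sided limma test (version 3.58.1, R 4.3.3) compared the groups, and p-values were adjusted over 23678 genes by Benjamini-Hochberg, with calls below 0.05. The fit was also run on simulated data with independent noise and changes larger than those of most members. That run does not bear on differences of the members' size.

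The members and lists were chosen with earlier results of these data known. Genes named are Akt1, Akt2, called members, the 8 largest differences in each direction, the 3 brightest and 3 dimmest members, members with discordant probes, a member near Akt2, up to 4 genes of smallest p and all calls in each list, and the 5 most alike genes, of which 1 is not reported here; the exceptions are Mrpl2, Mrpl10, Mrpl12, Mrpl58, Mrps36, Fbxo27, Ech1, Lgals4, Sars2, Kcnj3, Nppa and Myh11, chosen after their values were seen. Group levels were medians over genes. Alternatives were other normalizations, filters, probe choices, variance models, blocks and single arrays left out. The planned normexp correction used median in place of mean spot signals.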

Additional observations from a re-analysis of the deposited data

Results flagged for a closer look

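In 6 of the results named above, 1 control array stood apart from the other 3, with a gap to its nearest neighbour that exceeded Dixon's 95% critical value as a share of the range of the 4 controls. Chance gives about 1 such group in 20, and 7 of the 78 members had one, 3 of them with control replicate 1 as the low array. For Mrpl44 the share was 0.861 and for Mrps14 it was 0.853, with control replicate 1 low in both. For Mrpl58 it was 0.832, with control replicate 2 high. For Myc the share was 0.842, again with control replicate 1 low. For Mterf2 it was 0.889, with control replicate 3 low. For the array level of the respiratory chain and ATP synthase subunits it was 0.842, with control replicate 2 high.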

How the results depend on the processing

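The median difference of the members stayed below 0 under every alternative tried. It was -0.15 with quantile normalization, -0.17 with normexp and quantile normalization, -0.15 with the authors' values, -0.16 within slide row 2, and -0.13 to -0.10 with single arrays left out. Members averaging lower numbered between 57 and 67 of 78. The number called lower was 4 with quantile normalization, 4 with normexp and quantile normalization, 4 with the authors' values, 1 without a filter on dim probes (121 genes called in all, of 45553) and 9 with a trended variance, which also called 2 higher (2007 genes in all). It was 1 without the genes near Akt1 and Akt2, an alternative chosen after seeing the data, which leaves Mrps12 untested. It was 1 to 2 with single arrays left out, and 0 were called higher there. With the replicate number as a block 0 members were called lower and 1 gene in all was called. Deviations of same-numbered arrays from their group means correlated at 0.13, 0.0069 and 0.033, and those of other pairs at -0.17 to 0.17. So few values cannot decide whether the numbers pair mice. The main fit had no block by plan. In all, 288 genes were called with the slide row as a block, 555 with normexp, 727 with normexp and quantile normalization, 1680 with array weights, and 160 to 1127 with single arrays left out, against 1114 as reported. Signs turned for Mrpl15 (-0.064) and Mrpl44 (-0.023) when probes of a gene were averaged, for Mrpl44 (-0.042) with array weights, and within slide row 2 for Mrpl44 (-0.30), Mrps14 (-0.32) and Mrpl42 (0.070). Leaving out single arrays gave -0.15 to 0.22 for Mrpl44, -0.13 to 0.44 for Mrps14 and -0.082 to 0.012 for Mrpl51. The causes were not tested. With 3 and 4 mice and a median standard error of 0.08, differences of the size most members had could not be told from 0 by a test across all genes.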
